A study of Mus musculus with 15 samples.

Results

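The genes described here encode enzymes of cholesterol synthesis and fatty acid synthesis together with the SREBP and LXR genes that regulate sterol levels. They are 35 genes of the 46102 in the deposited tables, taken by symbol from a fixed list, and all 35 were found. By role they fall into the mevalonate arm of cholesterol synthesis (7 genes), the sterol arm (11 genes), the regulation of SREBP (5 genes), sterol transport and LXR (5 genes) and fatty acid synthesis (7 genes). RNA was sequenced from hematopoietic stem cells (HSCs) of the bone marrow of wild type C57BL/6 mice aged 8 to 10 weeks, with 100 cells sorted per library. The 4 nifedipine libraries came from HSCs cultured with nifedipine, a blocker of L-type calcium channels, and the 3 control libraries from HSCs cultured without it. In both cultured groups, cells that had divided at most 3 times were sorted. The 4 5-FU libraries came from fresh HSCs of mice at day 4 after 5-fluorouracil (5-FU), a drug that kills dividing marrow cells and after which HSCs enter division, and the 4 untreated libraries from fresh HSCs of mice given no drug. Nothing in the labels says whether libraries of a group came from separate mice or cultures, so the p-values measure the spread between libraries, which may be technical.

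Cholesterol is built from acetyl-CoA through mevalonate and isoprenoid units to squalene, which is closed into a sterol ring and then trimmed step by step. The transcription factors SREBF1 and SREBF2 are held in the endoplasmic reticulum by SCAP and the INSIG proteins when sterols are plentiful. When sterols are scarce they are cut, move to the nucleus and turn on synthesis genes, with SREBF2 mainly serving cholesterol and SREBF1 mainly fatty acids. LXR receptors act on the opposite side: oxysterols activate them, and they turn on the sterol exporters ABCA1 and ABCG1 and MYLIP, which sends lipoprotein receptors for degradation, as well as SREBF1 itself. Dividing cells need sterols and fatty acids for new membranes.

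Promoters of 4 genes are shown because Hmgcs1, Msmo1 and Insig1 are known SREBP targets whose levels were lower after 5-FU and higher in culture, while Mylip, an LXR target, was lower in both. Each is the 250 bases upstream of the start in RefSeq (GRCm38.p6), 5′ to 3′ on the strand of the gene. Capitals mark matches to a sterol regulatory element (TCACNCCAC), the box bound by NF-Y (CCAAT) and the E-box (CACGTG). Both strands were searched, and overlaps between motifs were not removed. The windows are chr13:119690101-119690350 (plus strand) for Hmgcs1, chr8:64733579-64733828 (minus strand) for Msmo1, chr5:28071162-28071411 (plus strand) for Insig1 and chr13:45389492-45389741 (plus strand) for Mylip.
Hmgcs1: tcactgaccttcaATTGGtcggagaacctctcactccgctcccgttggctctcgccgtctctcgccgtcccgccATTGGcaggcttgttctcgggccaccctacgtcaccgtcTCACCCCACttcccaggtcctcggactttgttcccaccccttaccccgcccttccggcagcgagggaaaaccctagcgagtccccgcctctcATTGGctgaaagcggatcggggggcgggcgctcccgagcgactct
Msmo1: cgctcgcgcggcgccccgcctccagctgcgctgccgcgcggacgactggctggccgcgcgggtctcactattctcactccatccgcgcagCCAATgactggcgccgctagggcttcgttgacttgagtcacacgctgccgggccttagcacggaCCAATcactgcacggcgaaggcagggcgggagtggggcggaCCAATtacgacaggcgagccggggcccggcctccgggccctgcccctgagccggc
Insig1: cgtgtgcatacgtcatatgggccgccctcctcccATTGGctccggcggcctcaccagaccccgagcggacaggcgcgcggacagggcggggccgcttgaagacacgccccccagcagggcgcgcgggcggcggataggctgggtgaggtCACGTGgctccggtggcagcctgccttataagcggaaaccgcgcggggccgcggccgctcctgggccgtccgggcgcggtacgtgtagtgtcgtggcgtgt
Mylip: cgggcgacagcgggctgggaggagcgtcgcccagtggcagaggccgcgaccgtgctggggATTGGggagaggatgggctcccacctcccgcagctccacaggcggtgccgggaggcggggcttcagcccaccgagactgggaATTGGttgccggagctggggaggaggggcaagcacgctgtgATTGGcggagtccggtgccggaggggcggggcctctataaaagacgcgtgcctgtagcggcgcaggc
The window of Hmgcs1 holds the sterol element at -137 to -129 from the start and 3 NF-Y boxes, that of Msmo1 3 NF-Y boxes, that of Insig1 1 NF-Y box and 1 E-box, and that of Mylip 3 NF-Y boxes. Of the 35 genes, 27 had an entry in the promoter table. The NF-Y box was in 20 of these 27, counting a gene once where any of its promoters matched, against 40.5% of the 10466 tested genes with an entry counted in the same way. Counted by promoter, it was in 33.8% of all 32851 promoters in the table. The letters GGGCGG, bound by Sp1, were in 22 of 27, against 61.8% of tested genes and 32.7% of all promoters. The E-box was in 6 of 27 (Hsd17b7, Sc5d, Dhcr7, Insig1, Scap and Abca1), against 9.55% of tested genes and 6.021% of all promoters. The sterol element in this spelling was in 1 of 27, Hmgcs1, against 1.23% of tested genes and 1.053% of all promoters. These matches describe the letters of the windows and were not tested against expression.

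The libraries held 6171730 to 26673045 reads in exons. These were 17582453 to 22372771 with nifedipine and 20145079 to 26673045 in control cultures. After 5-FU they were 9775640 to 17397392, and in untreated HSCs 6171730 to 16685285. Of the read total behind the deposited RPKM values, exon reads made up 31.8% to 38.4% with nifedipine and 35.5% to 38.9% in control cultures. This share was 30.0% to 31.9% after 5-FU and 25.0% to 26.3% in untreated HSCs. Levels are given in CPM, a gene's share of the exon reads of its library scaled with TMM factors. The HSC list, 12 genes including Kit, Hlf and Mecom, had reads in all 4 groups. Its sums were 2236 to 2503 CPM with nifedipine, 1449 to 1514 CPM in control cultures, 3210 to 3465 CPM after 5-FU and 4605 to 4957 CPM in untreated HSCs. The list also holds Cd48 and Flt3, which mark progenitors rather than HSCs. In the same order of groups, Cd48 averaged 4.83, 17.0, 2.10 and 2.46 CPM. Flt3 averaged 0.91, 0.35, 10.1 and 47.8 CPM. Markers of other cells differed between fresh libraries: the summed level of 8 stromal and adipocyte genes was 355 CPM in the 5-FU 4 library and 8.20 to 11.8 CPM in the other 5-FU libraries, and 1539 CPM in untreated 2, 315 CPM in untreated 4, 206 CPM in untreated 1 and 7.04 CPM in untreated 3. The 8 erythroid genes summed to 255 to 339 CPM after 5-FU and to 72.0, 1910, 88.2 and 2133 CPM in the untreated libraries. The 10 mitosis genes summed to 2616 to 3013 CPM after 5-FU and 160 to 716 CPM in untreated HSCs, with untreated 3 the highest. In such samples fewer cells of a type and less RNA per cell cannot be told apart.

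After 5-FU, cholesterol synthesis genes were lower while part of fatty acid synthesis was not. Of the 35 genes, 25 fell and 3 rose against untreated HSCs by edgeR's quasi-likelihood test (adjusted p of 0.05 or less over 13382 genes), where 25.9% of all tested genes fell and 25.3% rose. The median log2 fold change of the 35 genes was -0.78, against -0.05 over all tested genes. Genes that fell were spread over the mevalonate arm (5 of 7), the sterol arm (10 of 11), SREBP regulation (3 of 5) and sterol transport and LXR (5 of 5), and were 2 of 7 in fatty acid synthesis. The genes that rose were Scap, Fasn and Acaca. With the read total behind the deposited RPKM values as library size, the median of all genes was 0.17, 73.6% of all called genes rose in place of 49.4%, and of the 35 genes 19 fell and 4 rose: Mvd, Fdps, Dhcr7, Insig2, Srebf2 and Stard4 were no longer called, and Ebp was called higher. Other lists moved with these falls: 7 of 12 genes of the HSC list, which includes Cd48 and Flt3, fell after 5-FU and 0 rose. All 6 endothelial genes fell (sums of 93.0 to 116 CPM after 5-FU and 130 to 360 CPM in untreated HSCs), and all 10 mitosis genes rose. The part of these in the results was not tested.

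**Figure D1:**
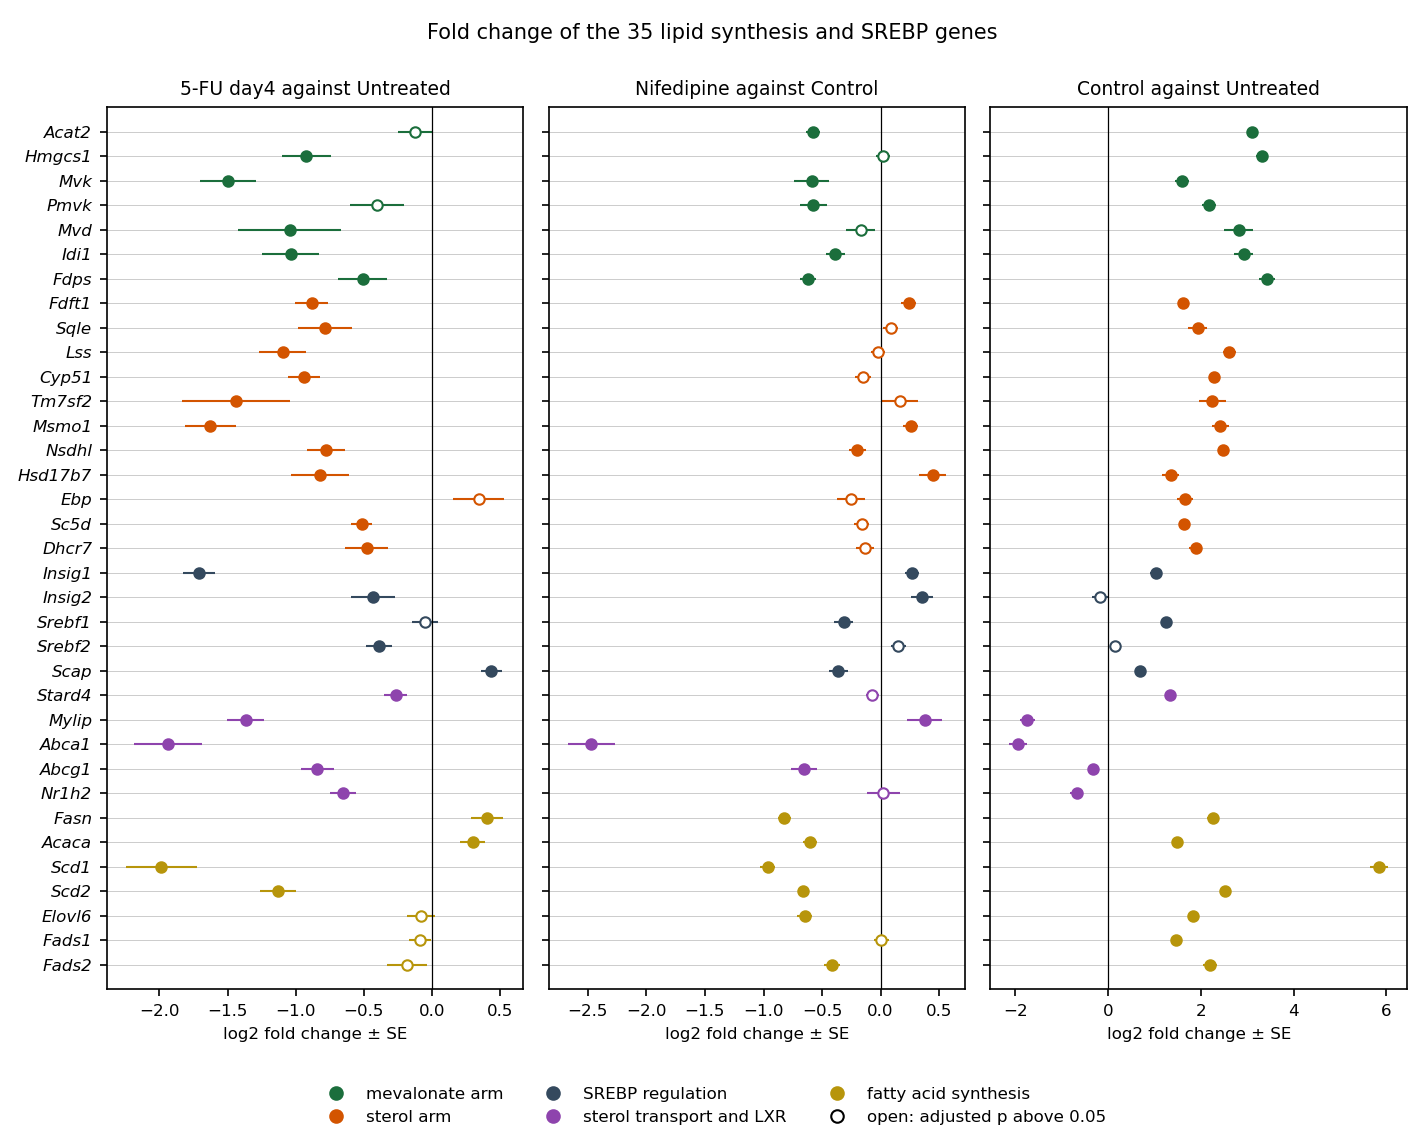
Log2 fold change ± SE (x axes, one per comparison, with different ranges) of the 35 genes (y axis), coloured by role, for 5-FU against untreated, nifedipine against control and cultured control against untreated. Filled points passed the adjusted p of 0.05. After 5-FU the median was -0.78, with nifedipine -0.17, and in cultured control against untreated HSCs 1.83.

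In the mevalonate arm, Hmgcs1, the synthase that makes HMG-CoA, had 38.5, 46.3, 29.8 and 54.1 CPM after 5-FU, against 85.1, 61.5, 94.9 and 76.3 CPM in untreated HSCs. The groups did not overlap, and the log2 fold change was -0.92 ± 0.18 (SE; edgeR adjusted p = 0.00168). Mvk, the kinase that phosphorylates mevalonate, averaged 3.35 ± 0.67 CPM after 5-FU and 9.41 ± 0.96 CPM in untreated HSCs (SD, n = 4 each), a log2 change of -1.50. Idi1, which isomerises the isoprenoid unit, averaged 18.1 ± 3.07 CPM after 5-FU and 36.7 ± 10.4 CPM in untreated HSCs, a log2 change of -1.04. Mvd, the decarboxylase before it, fell by 1.04 on the log2 scale on 150 reads after 5-FU and 314 reads in untreated HSCs, and the groups overlapped. Fdps, which joins the units into farnesyl diphosphate, had 17.4, 17.7, 17.9 and 15.8 CPM after 5-FU, against 27.8, 18.5, 32.2 and 18.8 CPM in untreated HSCs. The 5-FU values lay just below the lower untreated pair, and the log2 change was -0.51 ± 0.18 (edgeR adjusted p = 0.036). Acat2, which condenses acetyl-CoA in the first step, had 40.5, 41.7, 36.0 and 36.4 CPM after 5-FU, against 44.9, 32.7, 50.1 and 39.4 CPM in untreated HSCs, and its groups overlapped with no call. Pmvk, the kinase after Mvk, had a log2 change of -0.40 ± 0.20 and did not pass (edgeR adjusted p = 0.114). The call of Mvd was lost when any single library other than untreated 2 was left out (adjusted p of 0.0545 to 0.113), and that of Fdps when any single library other than untreated 2 or untreated 4 was left out (0.0641 to 0.0965).

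In the sterol arm, 10 of 11 genes fell, and the range over its members was -1.63 to 0.34 on the log2 scale. Msmo1, a methyl sterol oxidase, had 18.5, 20.3, 17.2 and 21.3 CPM after 5-FU, against 62.5, 37.2, 77.0 and 60.2 CPM in untreated HSCs. Its groups did not overlap, and the log2 change was -1.63 ± 0.19 (edgeR adjusted p = 5.7e-05). Cyp51, the lanosterol demethylase, had 36.3, 32.8, 43.6 and 38.7 CPM after 5-FU, against 73.9, 58.5, 76.8 and 80.7 CPM in untreated HSCs, with no overlap and a log2 change of -0.94 ± 0.12 (edgeR adjusted p = 9.14e-05). Fdft1, the squalene synthase that commits isoprenoids to sterols, had 23.4, 20.9, 27.8 and 24.1 CPM after 5-FU, against 47.6, 37.2, 50.3 and 42.1 CPM in untreated HSCs, with no overlap and a log2 change of -0.88 ± 0.12 (edgeR adjusted p = 0.000169). In all 3 genes the lowest untreated library was untreated 2. Lss, which closes the sterol ring, averaged 25.6 ± 4.28 CPM after 5-FU and 54.4 ± 12.4 CPM in untreated HSCs, a log2 change of -1.10. Sqle, the squalene epoxidase, fell by 0.78 with overlapping groups, since untreated 2 had 44.8 CPM and the 5-FU libraries 42.1 to 52.7 CPM. Genes of the later trimming steps, Nsdhl (-0.78), Hsd17b7 (-0.82), Sc5d (-0.52), Dhcr7 (-0.48) and Tm7sf2 (-1.44), also fell, Tm7sf2 on 67 reads after 5-FU and 166 in untreated HSCs. The call of Tm7sf2 was lost without both untreated 3 and 5-FU 4 (log2 change -1.26, edgeR adjusted p = 0.0555). Ebp, the sterol isomerase, did not pass, with 15.8 ± 2.93 CPM after 5-FU and 12.4 ± 2.65 CPM in untreated HSCs. The call of Dhcr7 was lost without untreated 3 (edgeR adjusted p = 0.0726), untreated 1 (0.0726), 5-FU 2 (0.0761) or 5-FU 3 (0.0815).

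Summed over both arms, the 18 genes reached 361, 375, 361 and 395 CPM after 5-FU, against 681, 482, 763 and 642 CPM in untreated HSCs. The 5-FU libraries lay close together and all below the untreated ones, which were spread more widely. Among the untreated libraries, untreated 3 was the highest in this sum and in the mitosis sum (716 CPM), and untreated 2 was the lowest in this sum, the highest in stromal markers and the one with the fewest exon reads; the part of these in the sums was not tested. Without both untreated 2 and 5-FU 4, a pair chosen after seeing the data, 24 of the 35 genes fell and 2 rose, and without both untreated 3 and 5-FU 4, 20 fell and 3 rose.

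**Figure D2:**
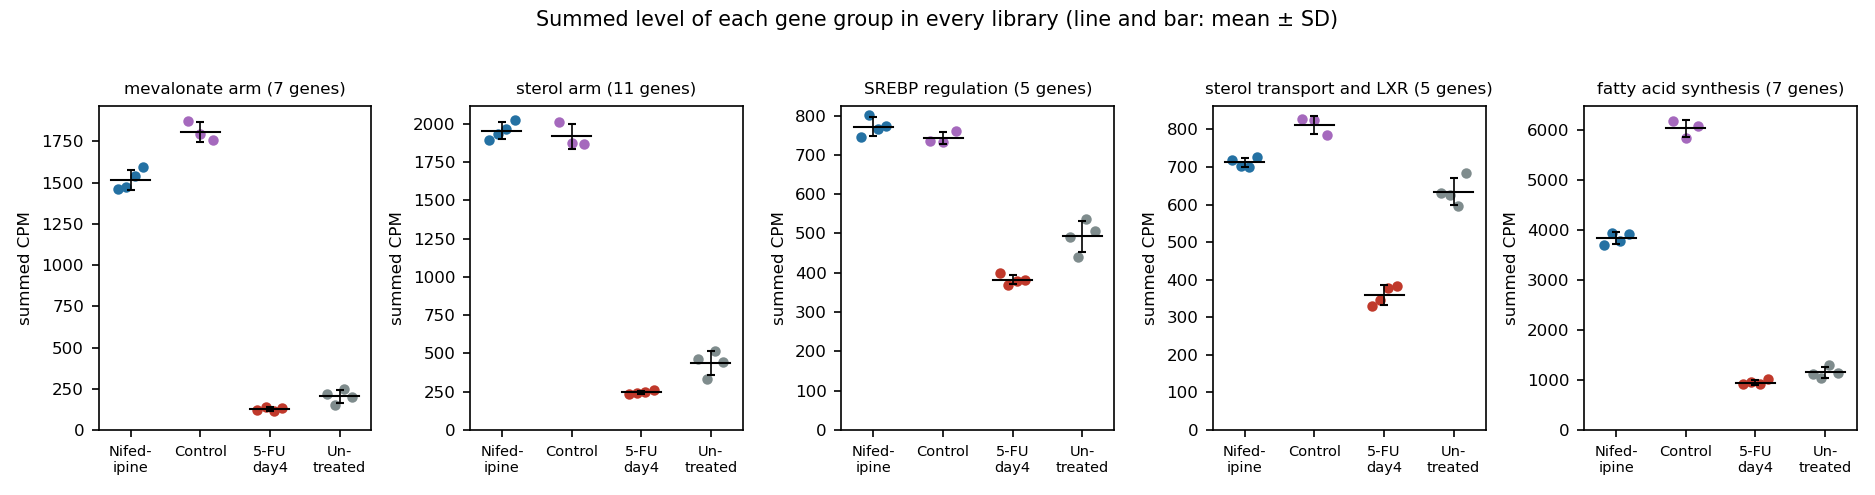
Summed CPM (y axes, starting at 0) of the 5 role groups in every library (points) of the 4 groups (x axis), with mean ± SD. Both arms of cholesterol synthesis lay lower after 5-FU than in untreated HSCs and several times higher in both cultured groups. Fatty acid synthesis lay at 3703 to 3950 CPM with nifedipine and 5857 to 6189 CPM in control cultures.

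Among the regulators of SREBP, Insig1 showed the smallest p of the 35 genes after 5-FU. Insig1, which retains SCAP and is itself an SREBP target, had 32.4, 32.8, 32.7 and 32.6 CPM after 5-FU, against 125, 80.3, 111 and 110 CPM in untreated HSCs. The 5-FU libraries were almost level and all below the untreated ones, and the log2 change was -1.71 ± 0.12, a 3.27-fold lower level (edgeR adjusted p = 4.36e-06). The 5-FU values rested on 586, 332, 559 and 514 reads. Counting noise at such read numbers is wider than their spread, so their closeness was not taken as a result. Srebf2 had 176, 156, 164 and 156 CPM after 5-FU, against 205, 175, 246 and 228 CPM in untreated HSCs. The groups met at untreated 2, and the log2 change was -0.39 ± 0.09 (edgeR adjusted p = 0.00584). The call was lost with the RPKM read total (log2 change -0.16, adjusted p = 0.201) and with a trend on exon length removed (-0.26, 0.0799). Srebf1 had 49.4, 46.0, 53.2 and 55.8 CPM after 5-FU, against 47.9, 48.0, 56.1 and 58.9 CPM in untreated HSCs. Its groups overlapped throughout and it was not called (log2 change -0.05 ± 0.10). Scap, the escort of SREBP, rose with no overlap, at 104 ± 2.93 CPM after 5-FU and 76.4 ± 8.92 CPM in untreated HSCs (log2 change 0.44 ± 0.08, edgeR adjusted p = 0.00108). Insig2, the second retention protein, fell by 0.43 with overlapping groups (edgeR adjusted p = 0.0448). Its untreated mean rested on 61.8 CPM in untreated 2 against 34.0 to 41.4 CPM in the other untreated libraries, and without that library its log2 change was -0.24 with no call (edgeR adjusted p = 0.0708). Its call was also lost without untreated 1 and without each of the 4 5-FU libraries (adjusted p of 0.0652 to 0.103).

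All 5 genes of sterol transport and LXR fell after 5-FU, each with no overlap between groups, where the 5-FU libraries lay wholly below the untreated ones for 23.3% of all tested genes. Abca1, the exporter of cholesterol to apolipoproteins, had 36.6, 34.6, 59.7 and 71.1 CPM after 5-FU, against 204, 199, 130 and 246 CPM in untreated HSCs. Its log2 change was -1.94 ± 0.25 (edgeR adjusted p = 0.000116), 3.84-fold lower. Abcg1, the exporter to high density lipoprotein, had 56.9, 50.8, 62.3 and 77.0 CPM after 5-FU, against 106, 128, 102 and 109 CPM in untreated HSCs (log2 change -0.84 ± 0.12, edgeR adjusted p = 0.000239). Mylip had 15.9, 16.6, 19.9 and 18.8 CPM after 5-FU, against 55.1, 42.2, 37.1 and 49.1 CPM in untreated HSCs (log2 change -1.37 ± 0.14, edgeR adjusted p = 2.32e-05). For Abca1 and Mylip the lowest untreated value was that of untreated 3, which is also the untreated library highest in mitosis genes. Nr1h2, which encodes LXR beta, averaged 19.9 ± 1.06 CPM after 5-FU and 31.2 ± 2.78 CPM in untreated HSCs. Stard4, a carrier of cholesterol between membranes, fell by 0.27 on the log2 scale, and its call was lost without 5-FU 1 (edgeR adjusted p = 0.0614) or 5-FU 4 (0.0577), with the RPKM read total (log2 change -0.04, 0.739) and with a trend on exon length removed (-0.14, 0.291). Macrophages also express Abca1 and Abcg1: 9 macrophage genes summed to 36.3 to 75.6 CPM after 5-FU and to 153, 140, 17.4 and 94.5 CPM in untreated HSCs, lowest in untreated 3. The largest part of this sum was Vcam1, which averaged 25.2 CPM after 5-FU and 66.2 CPM in untreated HSCs. Group means of C1qa, C1qb, C1qc and Adgre1 were 1.37 to 5.15 CPM. None of the 8 tested macrophage genes was called, and the part of such cells in these values was not tested.

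In fatty acid synthesis the stearoyl-CoA desaturases Scd1 and Scd2 fell, Fasn and Acaca rose, and Elovl6, Fads1 and Fads2 had no call. Scd1, a stearoyl-CoA desaturase, had 3.32, 2.87, 3.98 and 4.82 CPM after 5-FU, against 11.9, 19.5, 10.2 and 18.5 CPM in untreated HSCs. Its groups did not overlap, and the log2 change was -1.99 ± 0.26 (edgeR adjusted p = 0.000132), on 233 reads after 5-FU and 806 in untreated HSCs. The untreated values of Scd1 ran in the order of the stromal and adipocyte sums. These were 206, 1539, 7.04 and 315 CPM in untreated 1 to 4, and the part of such cells was not tested. Scd2, the desaturase with far more reads in these cells, had 188, 239, 202 and 301 CPM after 5-FU, against 513, 461, 560 and 498 CPM in untreated HSCs, with no overlap and a log2 change of -1.13 ± 0.13 (edgeR adjusted p = 6.01e-05). Fasn, the fatty acid synthase, had 281, 268, 274 and 269 CPM after 5-FU, against 192, 174, 270 and 189 CPM in untreated HSCs. It rose by 0.40 ± 0.12 on the log2 scale (edgeR adjusted p = 0.0142), with untreated 3 at the level of the 5-FU libraries. Acaca, the acetyl-CoA carboxylase before it, had 190, 195, 184 and 181 CPM after 5-FU, against 129, 152, 182 and 147 CPM in untreated HSCs. It rose by 0.30 ± 0.09 (edgeR adjusted p = 0.0182), again with untreated 3 inside the 5-FU range. Fasn was no longer called without both untreated 2 and 5-FU 4 (edgeR adjusted p = 0.0544), and Acaca without 5-FU 2 (0.051). Elovl6, which lengthens palmitate, had 94.5, 92.5, 68.6 and 87.2 CPM after 5-FU, against 89.9, 81.8, 99.1 and 90.3 CPM in untreated HSCs, with no call. The polyunsaturated desaturases Fads1 (log2 change -0.09 ± 0.08) and Fads2 (-0.18 ± 0.14) did not pass.

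**Figure D3:**
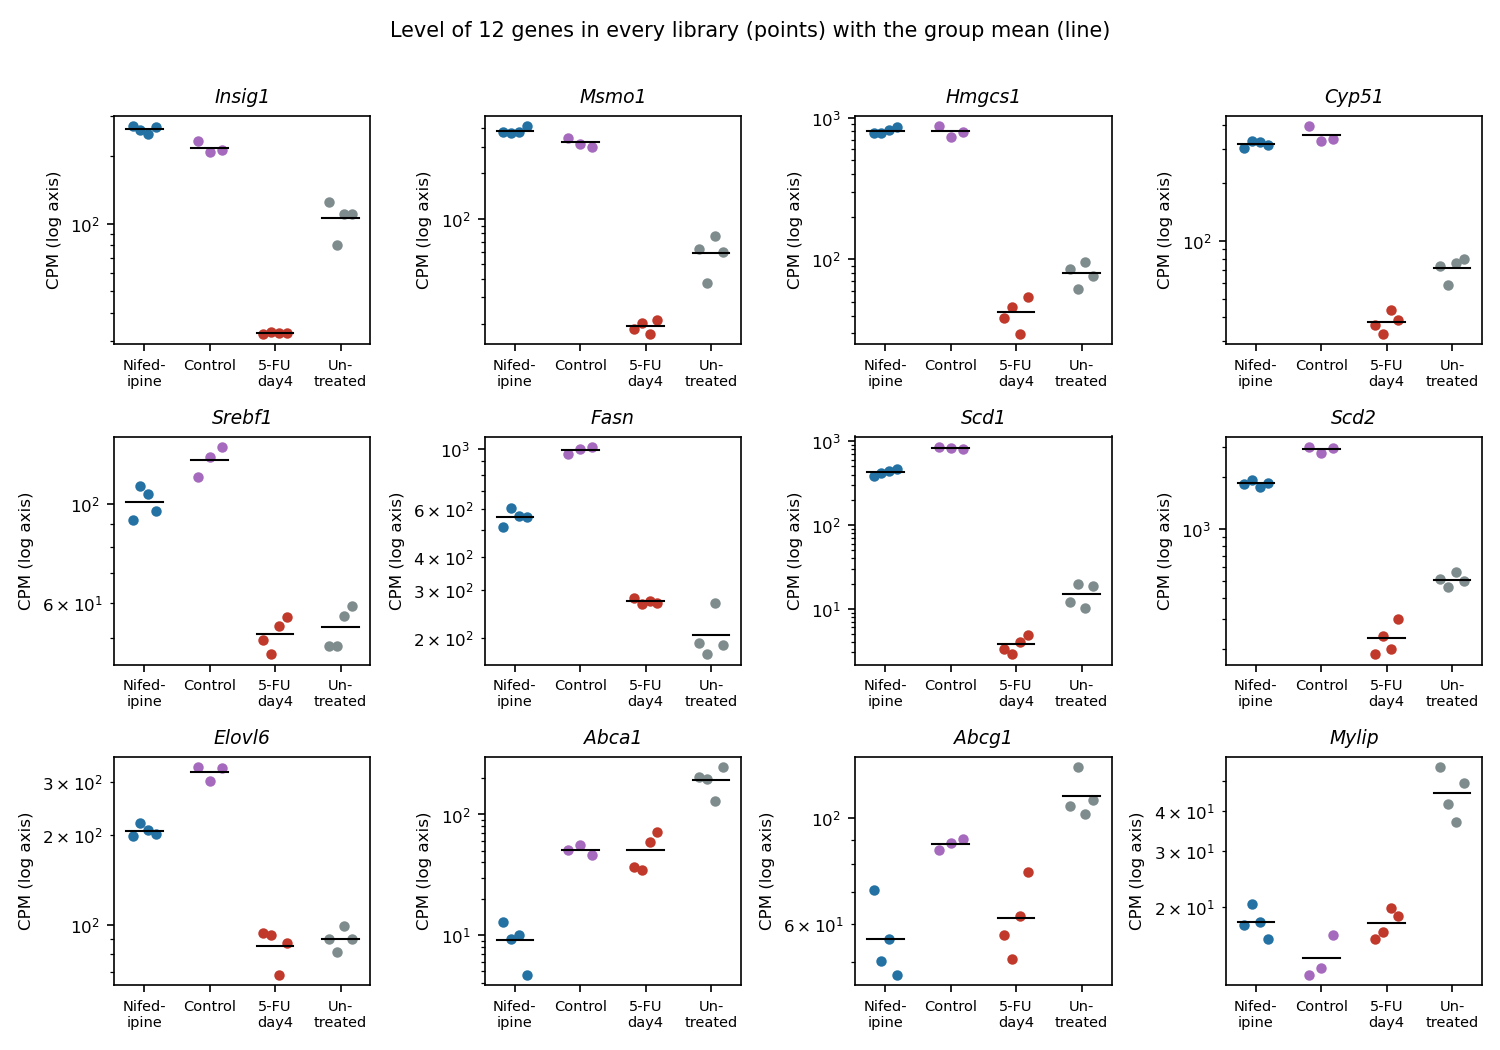
CPM on log axes (y) of 12 of the 35 genes in every library (points) of the 4 groups (x axis), with the group mean as a line. Insig1 in the 5-FU libraries sits between 32.4 and 32.8 CPM, below the untreated libraries at 80.3 to 125 CPM. Abca1 is lowest with nifedipine, at 4.70 to 12.7 CPM.

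Of 47 other genes of these pathways, 44 were tested after 5-FU, 12 rose and 11 fell, against 25.3% and 25.9% of all tested genes. Those with the smallest p were Lbr, the lamin B receptor that is also a sterol reductase, which rose to 430 ± 22.9 CPM after 5-FU, against 260 ± 21.4 CPM in untreated HSCs (log2 change 0.73), and Acat1, the mitochondrial thiolase (0.72). The acyl-CoA synthetase Acsl3 fell by 1.04 and the phosphatidate phosphatase Lpin1 fell by 1.14 on the log2 scale. By list, 4 of 8 genes of the isoprenoid branches and sterol steps rose and 1 fell, of 7 SREBP processing and turnover genes 1 rose and 0 fell, of 6 acetyl-CoA supply genes 2 rose and 1 fell, of 9 tested storage, transport and oxysterol genes 2 rose and 4 fell, and of 14 tested fatty acid elongation and activation genes 3 rose and 5 fell.

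With nifedipine the fatty acid genes were lower than in control cultures, while 7 of the 11 sterol arm genes had no call. Of the 35 genes, 16 fell and 6 rose (edgeR's quasi-likelihood test over 12805 genes), where 24.2% of all tested genes fell and 25.7% rose. The median log2 fold change was -0.17 over the 35 genes and 0.02 over all tested genes. Fatty acid synthesis had 6 of 7 genes lower (median -0.65), the mevalonate arm 5 of 7 lower (median -0.57), and the sterol arm 1 lower and 3 higher of 11 (median -0.02). With a trend on exon length removed, 39.6% of all called genes rose in place of 51.5%, and of the 35 genes 21 fell and 4 rose. The 10 mitosis genes summed to 1892 to 2136 CPM with nifedipine and 2644 to 2910 CPM in control cultures, and 1 of them rose and 5 fell. Of the 12 genes of the HSC list, which includes Cd48 and Flt3, 7 rose and 3 fell. Of the other lists, 3 of 5 megakaryocyte genes and 3 of 4 tested erythroid genes fell, and all 3 tested macrophage genes rose. The part of all these in the results was not tested.

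Every desaturase and chain-building enzyme on the list except Fads1 fell with nifedipine with no overlap between groups, where the nifedipine libraries lay wholly below the control libraries for 25.5% of all tested genes. Scd1 had 383, 423, 435 and 463 CPM with nifedipine, against 857, 827 and 813 CPM in control cultures (log2 change -0.97 ± 0.06, edgeR adjusted p = 1.03e-09). Fasn had 516, 604, 564 and 561 CPM with nifedipine, against 959, 999 and 1018 CPM in control cultures (log2 change -0.82 ± 0.06, edgeR adjusted p = 2.9e-09). Scd2 had 1818, 1918, 1763 and 1854 CPM with nifedipine, against 2999, 2756 and 2957 CPM in control cultures (log2 change -0.66 ± 0.05, edgeR adjusted p = 5.16e-09). The nifedipine libraries lay below the control libraries in all of these by far more than the spread within either group. Elovl6 had 198, 218, 207 and 200 CPM with nifedipine, against 335, 301 and 332 CPM in control cultures (log2 change -0.65 ± 0.06). Acaca had 266, 284, 295 and 278 CPM with nifedipine, against 424, 434 and 419 CPM in control cultures (log2 change -0.60 ± 0.06). Fads2 fell by 0.41 on the log2 scale. Fads1 averaged 391 ± 18.7 CPM with nifedipine (n = 4) and 389 ± 36.0 CPM in control cultures (n = 3), with a log2 change of 0.01 ± 0.07 and no call.

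In the mevalonate arm, Acat2 had 233, 232, 256 and 254 CPM with nifedipine, against 365, 363 and 360 CPM in control cultures (log2 change -0.57 ± 0.06, edgeR adjusted p = 3.65e-07). Fdps had 156, 179, 182 and 179 CPM with nifedipine, against 252, 285 and 265 CPM in control cultures (log2 change -0.62 ± 0.07, edgeR adjusted p = 8.38e-07). Neither gene overlapped between groups (25.5% of all tested genes lay wholly lower), and the same held for the other genes of this arm that fell, Mvk (-0.59), Pmvk (-0.58) and Idi1 (-0.39). Hmgcs1, which stands between Acat2 and Mvk in the path, averaged 810 ± 39.0 CPM with nifedipine and 799 ± 66.2 CPM in control cultures with a log2 change of 0.02 ± 0.06. Mvd, at -0.17 ± 0.12, did not pass either.

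In the sterol arm Msmo1 had 376, 373, 378 and 411 CPM with nifedipine, against 346, 316 and 302 CPM in control cultures, with no overlap and a log2 change of 0.26 ± 0.06 (edgeR adjusted p = 0.00236). Fdft1 had 161, 162, 161 and 163 CPM with nifedipine, against 143, 127 and 141 CPM in control cultures (log2 change 0.24 ± 0.07, edgeR adjusted p = 0.00558). Hsd17b7, a ketosteroid reductase, rose by 0.44 ± 0.12. Nsdhl fell by 0.20, with an adjusted p of 0.0306 by edgeR and of 0.0785 without control 1, 0.0948 without control 3 and 0.0844 without nifedipine 1. Cyp51 had 304, 329, 326 and 316 CPM with nifedipine, against 394, 330 and 337 CPM in control cultures. Its groups lay just apart, and it was not called (edgeR adjusted p = 0.0722). The other genes without a call, Sqle, Lss, Tm7sf2, Ebp, Sc5d and Dhcr7, had log2 changes of -0.25 to 0.17. With the length trend removed, Lss (-0.20), Cyp51 (-0.28), Sc5d (-0.31) and Dhcr7 (-0.22) were called lower. DESeq2 also called Cyp51 (adjusted p = 0.0441) and Sc5d (0.0355, against 0.0533 with edgeR) lower. Cyp51 was called lower without control 2 too (edgeR adjusted p = 0.039). Sc5d was called lower with limma-voom too (adjusted p = 0.0484) and without nifedipine 1 (edgeR adjusted p = 0.035). Ebp was called lower without nifedipine 3 (edgeR adjusted p = 0.0472). The call of Fdft1 was lost with the length trend removed (log2 change 0.04) and that of Msmo1 with all 4 groups in one fit (edgeR adjusted p = 0.121).

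The retention genes rose with nifedipine while Srebf1 and Scap fell. Insig1 had 271, 260, 251 and 269 CPM with nifedipine, against 232, 208 and 213 CPM in control cultures (log2 change 0.27 ± 0.06, edgeR adjusted p = 0.0015). Insig2 averaged 49.8 ± 3.61 CPM with nifedipine and 39.0 ± 0.79 CPM in control cultures (log2 change 0.35 ± 0.09, edgeR adjusted p = 0.00443). Srebf1 had 92.0, 110, 105 and 96.3 CPM with nifedipine, against 115, 127 and 134 CPM in control cultures (log2 change -0.31 ± 0.08, edgeR adjusted p = 0.00313). For all 3 the groups did not overlap. Over all tested genes, the nifedipine libraries lay wholly above the control libraries for 25.7% and wholly below for 25.5%. Srebf2 had 241, 284, 268 and 259 CPM with nifedipine, against 233, 241 and 238 CPM in control cultures. Its groups just failed to overlap (241.1 CPM in nifedipine 1 and 241.0 CPM in control 2). It was not called (log2 change 0.15 ± 0.06, edgeR adjusted p = 0.0631). It was called higher with DESeq2 (adjusted p = 0.0457) and without nifedipine 1 (edgeR adjusted p = 0.0244), and its log2 change was -0.0077 with the length trend removed. Scap fell by 0.36 on the log2 scale.

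Abca1 had the largest fold change of the 35 genes with nifedipine. It had 12.7, 9.35, 9.93 and 4.70 CPM with nifedipine, against 51.1, 55.7 and 46.0 CPM in control cultures, a log2 change of -2.47 ± 0.20 and a 5.54-fold lower level (edgeR adjusted p = 2.24e-08). Abcg1 had 70.5, 50.1, 55.8 and 47.0 CPM with nifedipine, against 85.5, 88.8 and 90.3 CPM in control cultures (log2 change -0.66 ± 0.11, edgeR adjusted p = 7.4e-05). Both exporters lay wholly below the control libraries, as did 25.5% of all tested genes. Mylip, another LXR target, had 17.5, 20.3, 17.9 and 15.8 CPM with nifedipine, against 12.2, 12.8 and 16.3 CPM in control cultures. Its groups overlapped, its log2 change was 0.38 ± 0.15 (edgeR adjusted p = 0.0467), and the call was lost without any one of control 1, control 2, nifedipine 1, nifedipine 2 or nifedipine 3 (adjusted p of 0.068 to 0.184). Nr1h2 and Stard4 were not called, but with the length trend removed Stard4 was called lower (log2 change -0.22, edgeR adjusted p = 0.00226). The macrophage genes Vcam1, C1qa, C1qb and C1qc had 0 reads in both cultured groups and Adgre1 7 reads with nifedipine and 0 in control cultures, while the sum of the macrophage list was 10.2 to 14.4 CPM with nifedipine and 5.09 to 6.64 CPM in control cultures. All 3 tested genes of this list rose with nifedipine and 0 fell. The part of such cells was not tested.

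Of the 47 other pathway genes, 45 were tested with nifedipine, 8 rose and 17 fell, against 25.7% and 24.2% of all tested genes. Lpin1 rose to 92.4 ± 5.97 CPM with nifedipine, against 35.6 ± 7.72 CPM in control cultures (log2 change 1.38). Tmem97, a sterol-binding membrane protein of the endoplasmic reticulum, fell to 35.3 ± 5.13 CPM with nifedipine, against 83.1 ± 8.07 CPM in control cultures (-1.23). The acyl-CoA synthetase Acsl5 fell by 0.51 and Pdss1, which makes the side chain of ubiquinone, fell by 0.90. Of 15 tested fatty acid elongation and activation genes 3 rose and 7 fell, of 8 isoprenoid branch genes 1 rose and 4 fell, of 9 storage, transport and oxysterol genes 1 rose and 3 fell, of 6 acetyl-CoA supply genes 2 rose and 2 fell, and of 7 SREBP processing and turnover genes 1 rose and 1 fell. With library sizes taken from the RPKM values, 15 of these genes were called in place of 25.

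Genes of both synthesis pathways took a larger share of the reads in cultured control HSCs than in fresh untreated HSCs. Culture, the number of divisions and the experiment differ together in this comparison and cannot be told apart, and it shares its libraries with the other comparisons. The labels do not give the culture medium, its serum or lipid content, or the culture time. Of the 35 genes, 29 rose and 4 fell (edgeR's quasi-likelihood test over 13518 genes), where 34.1% of all tested genes rose and 37.8% fell, and the median was 1.83 on the log2 scale, against -0.11 over all tested genes. With library sizes taken from the RPKM values, the median of all genes was 0.18, 60.1% of all called genes rose in place of 47.4%, and 30 of the 35 genes rose and 3 fell. All 7 genes of the mevalonate arm, all 11 of the sterol arm and all 7 of fatty acid synthesis rose, each with no overlap, where the control libraries lay wholly above the untreated ones for 34.6% of all tested genes.

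Scd1 moved most: it averaged 832 ± 22.4 CPM in control cultures (n = 3) and 15.02 ± 4.68 CPM in untreated HSCs (n = 4), a 57.1-fold difference (log2 change 5.84 ± 0.20, edgeR adjusted p = 2.94e-08). Fdps averaged 267 ± 16.7 CPM in control cultures and 24.3 ± 6.79 CPM in untreated HSCs (10.8-fold). Hmgcs1 averaged 799 ± 66.2 CPM in control cultures and 79.5 ± 14.2 CPM in untreated HSCs (9.99-fold). The smallest rise of the synthesis enzymes was that of Hsd17b7, 2.55-fold. Srebf1 rose 2.37-fold and Insig1 2.04-fold, Scap 1.60-fold, whereas Srebf2 averaged 237 ± 4.14 CPM in control cultures and 213 ± 30.6 CPM in untreated HSCs with no call. Srebf2 was called higher with library sizes taken from the RPKM values (log2 change 0.44, edgeR adjusted p = 0.00396). The same held with the length trend removed (0.63, edgeR adjusted p = 0.000908) and without untreated 3 (0.22, edgeR adjusted p = 0.044). Insig2 had no call in the main fit. Stard4 rose 2.54-fold. The genes that fell were Mylip (log2 change -1.74), Abca1 (-1.93), Nr1h2 (-0.68) and Abcg1 (-0.33), all with no overlap (37.4% of all tested genes lay wholly lower), the last of which was not called with library sizes taken from the RPKM values (log2 change -0.04) and had a log2 change of 0.18 with the length trend removed. Marker lists moved as well: all 10 mitosis genes rose (sums of 2644 to 2910 CPM in control cultures and 160 to 716 CPM in untreated HSCs). Genes that fell were 9 of 12 of the HSC list (which includes Cd48 and Flt3), 8 of 8 tested macrophage genes, 6 of 6 tested stromal and adipocyte genes and 5 of 6 endothelial genes. The part of these lists in the results was not tested.

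Of the 47 other pathway genes, 45 were tested in this comparison, 28 rose and 6 fell, against 34.1% and 37.8% of all tested genes, and all 6 acetyl-CoA supply genes rose. Acly, which makes cytosolic acetyl-CoA from citrate, rose to 737 ± 42.9 CPM in control cultures, against 204 ± 15.7 CPM in untreated HSCs (log2 change 1.85). Me1, the malic enzyme that yields NADPH, rose by 3.32 on the log2 scale, Lpcat3, an LXR target that remodels phospholipids, by 1.78, and Lbr by 1.58.

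Between genes, levels were compared per exon length with the deposited RPKM values, within each group. Scd2 was the highest of the 35 genes in all 4 groups, with a median of 118 RPKM with nifedipine, 185 RPKM in control cultures, 12.9 RPKM after 5-FU and 25.2 RPKM in untreated HSCs. Stard4 was the second after 5-FU (12.4 RPKM) and in untreated HSCs (12.1 RPKM), where Insig1 (11.5 RPKM) and Fads1 (11.0 RPKM) followed closely. In both cultured groups Hmgcs1 was the second, at 78.6 RPKM with nifedipine and 73.9 RPKM in control cultures. Scd1 ranked 11 of 35 with nifedipine, 5 in control cultures, 35 after 5-FU and 32 in untreated HSCs. Abca1 ranked 35 with nifedipine (0.31 RPKM) and 34 in control cultures, 26 after 5-FU and 11 in untreated HSCs (5.27 RPKM).

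**Figure D4:**
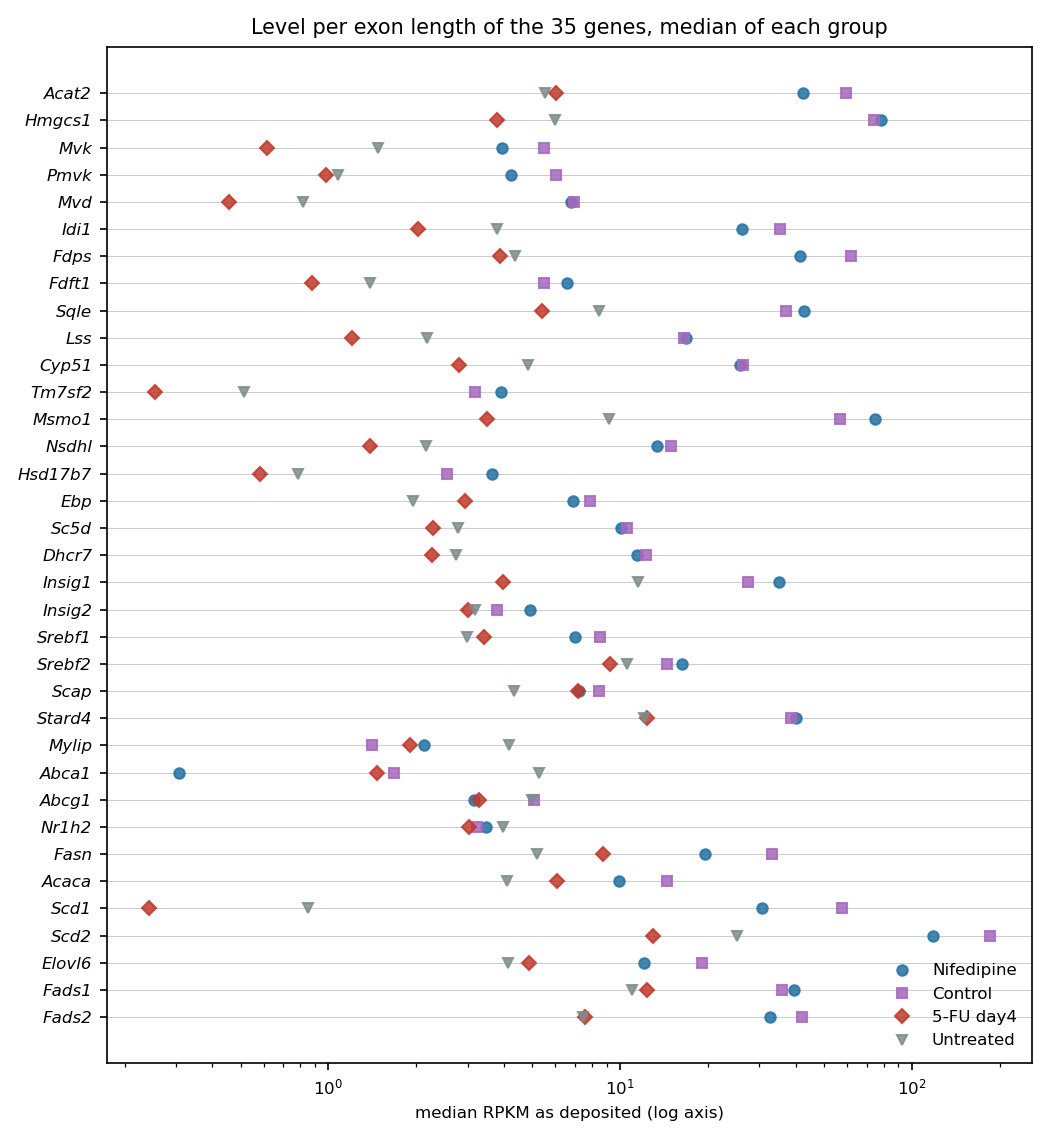
Median RPKM as deposited (x axis, log) of the 35 genes (y axis) in the 4 groups (markers). Within every group Scd2 is the highest. The RPKM values rest on another read total than the CPM values, so fold changes are read from the CPM values.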

How the data were processed

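Per the labels, 100 HSCs were sorted per library and libraries came from a Nextera XT kit. This kit leaves strand unmarked, so reads of a gene and of an overlapping antisense gene cannot be told apart. Reads were placed on mm10, per the submitters' processing notes. The aligner and the counting program were not given in the sources used here. Per the file headers, the authors deposited total exon reads (whole-number counts) and RPKM values for 48737 features per library. Counts were used for all tests and the deposited RPKM values only for levels per exon length and for an alternative library size. Features of 1 gene listed more than once were added up, giving 46102 genes. This touched 4.66% to 4.95% of the reads and none of the 35 genes.

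Each comparison was fitted with edgeR 4.0.16 in R 4.3.3 on its own libraries: TMM factors over all 15 libraries, filterByExpr at its defaults (which keep a minimum count of 10), a two-sided quasi-likelihood F test with no term but group, and p-values adjusted by Benjamini-Hochberg over all tested genes, with calls at 0.05 or less. Standard errors are the log2 fold change over the root of F. All 35 genes passed the filter in every comparison. Simulated counts with known fold changes were used to test the script. DESeq2 1.42.0, limma 3.58.1 and other settings were alternatives. The genes and lists were chosen with earlier results of these data known. All 35 genes are named. Values in every library are given for the 8 called genes with the smallest p after 5-FU and with nifedipine and for Insig1, Srebf1, Srebf2, Abca1, Abcg1, Mylip, Fasn and Scd1; Hmgcs1 was added after its values were seen. Other pathway genes are named where they were among the 4 called with the smallest p. Some genes of these pathways are not reported here. Replicate numbers were not used to pair libraries in the main fits.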

Additional observations from a re-analysis of the deposited data

Results flagged for a closer look

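Of 105 sets of 4 libraries (35 genes in the nifedipine, 5-FU and untreated groups), 4 held a library far from the others by Dixon's test, where chance gives about 1 in 20. With nifedipine, Fdps was low in nifedipine 1, at 155.9 CPM against 178.6 to 182.2 CPM in the other nifedipine libraries. Lss was low in the same library, at 298.5 CPM against 339.2 to 347.0 CPM. Msmo1 was high in nifedipine 4, at 411.1 CPM against 372.5 to 377.8 CPM. After 5-FU, Nr1h2 was low in 5-FU 2, at 18.28 CPM against 20.18 to 20.54 CPM.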

How the results depend on the processing

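Of the 28 calls after 5-FU, 19 were kept in each of the 21 alternatives in which the gene was tested; at a minimum of 10 CPM, 31 of the 35 genes were tested (not Mvk, Pmvk, Mvd and Tm7sf2). Under 18 alternatives each, 18 of 22 calls with nifedipine and 32 of 33 in cultured control against untreated HSCs were kept. Leaving out 1 library at a time gave 21 to 25 genes lower and 2 to 3 higher after 5-FU, 15 to 17 lower and 5 to 6 higher with nifedipine, and 4 lower and 29 to 30 higher in control cultures; other pathway genes called were 19 to 26, 18 to 23 and 31 to 34. With nifedipine, 15 other pathway genes in place of 25 were called with the RPKM read total. The causes were not tested.

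No call turned its direction under these alternatives except that of Abcg1 in control cultures against untreated HSCs, at 0.18 with the length trend removed. Uncalled log2 changes that turned sign lay near 0. After 5-FU these were, with the RPKM read total, Acat2 (0.11), Srebf1 (0.18), Elovl6 (0.15), Fads1 (0.14) and Fads2 (0.047), with the length trend removed Srebf1 (0.056) and Elovl6 (0.069), and without both untreated 3 and 5-FU 4 Acat2 (0.0029). With nifedipine they were Lss (0.019) with the RPKM read total, and with the length trend removed Hmgcs1 (-0.088), Srebf2 (-0.0077), Nr1h2 (-0.010) and Fads1 (-0.094). In control cultures Insig2 was at 0.13 and 0.075 under those same settings. Leaving out 1 library at a time, the ranges were -0.13 to 0.015 (Elovl6) and -0.092 to 0.010 (Srebf1) after 5-FU, -0.035 to 0.087 (Fads1), -0.038 to 0.082 (Hmgcs1), -0.045 to 0.024 (Lss) and -0.093 to 0.094 (Nr1h2) with nifedipine, and -0.26 to 0.032 (Insig2) in control cultures.

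Deviations from the group mean correlated at -0.141 to 0.123 between libraries of the same number. Such correlations cannot show whether the libraries were paired by design, so the replicate block was run as an alternative only. With the replicate block, 25 of the 35 genes fell and 3 rose after 5-FU, 18 fell and 7 rose with nifedipine, and 4 fell and 29 rose in control cultures; 21, 24 and 32 other pathway genes were called. The block kept only replicate numbers found in both groups. It therefore left out nifedipine 4, and untreated 4 in the comparison with control cultures. With nifedipine Hmgcs1 (-0.0093), Nr1h2 (-0.0063) and Fads1 (-0.023) turned sign under the block. Without nifedipine 4 and with no block they were at -0.012, -0.0083 and -0.026, so the block and the lost library cannot be told apart here. Depth limits Tm7sf2 most, with 67 reads over the 4 5-FU libraries.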
